A study of Mus musculus with 18 samples.

Results

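Triamcinolone-injected mouse retina was compared with itself across time: retinas at day 30 after the injection against retinas at day 7, with no vehicle array in the contrast. The members are the 6 arrays labelled TAA, 3 at day 30 and 3 at day 7, out of 18 arrays in all, and the measurement is every one of the 34945 probe sets that name exactly 1 gene, out of 45101 probe sets. The TAA eyes of both days were injected into the vitreous at day 0 with triamcinolone, a synthetic glucocorticoid. The other 12 arrays are retinas at day 30 and day 7 from eyes injected in the same way with dexamethasone (DEX, another synthetic glucocorticoid) or with BSS, the vehicle control, 3 arrays for each drug and day. Every retina came from male C57BL6/J mice that were 2 months old, each array is a biological replicate per the labels, and the labels give neither the doses nor the formulation. No array of an uninjected eye is used, so every group shares the injection itself.

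Glucocorticoids bind the glucocorticoid receptor, encoded by Nr3c1, which then enters the nucleus and switches target genes on or off. Well-known targets include Fkbp5 and Tsc22d3, which feed back on the receptor or dampen inflammatory signalling, the transcription factor Zbtb16 and the metallothioneins. In the eye these drugs are given against swelling and inflammation, and their known side effects are raised eye pressure and cataract. In the retina the receptor is abundant in Müller glia, the radial glial cells that span the tissue.

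The deposited log2 values are centred, probe set by probe set, on the median array, so 0 is the middle array and no value is an expression level. The label "retina" therefore could not be checked against the levels of retinal markers. Differences below are day 30 minus day 7 on the log2 scale, given with the standard error (SE) of a limma fit, and n is 3 arrays a day throughout. The arrays were unequal. The standard deviation over probe sets was 0.147 to 0.365 on the TAA arrays and 0.149 to 0.300 on the 12 others, and the widest were replicate 2 of day 30 (0.365) and replicate 2 of day 7 (0.347). On replicate 2 of day 30 the Actb control probes gave -0.432 for the 3′ end minus the 5′ end, relative to the median array. The 12 BSS and DEX arrays gave -0.0786 to 0.164. The Gapdh control probes of the same TAA array gave -0.0264, inside the range of those 12 arrays (-0.0806 to 0.344). Crystallins, the proteins of the lens, averaged 3.44 on replicate 3 of day 30. Within groups the residual standard deviation had a median of 0.187 over TAA arrays, 0.120 over BSS arrays and 0.153 over DEX arrays.

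No probe set passed the threshold of 0.05 between day 30 and day 7 after Benjamini-Hochberg adjustment over all 34945 (limma, 0 called, 0.0%), with 0.0521 as the smallest adjusted value. At an unadjusted p under 0.05 there were 4338 probe sets (12.4%), of which 41.1% were higher at day 30. With the 6 TAA arrays fitted alone that number was 1964, without replicate 2 of day 7 it was 2656, and without replicate 2 of both days 2619. Over 18193 genes, each represented by its most variable probe set, 916 had higher values at day 30 at an unadjusted p under 0.05 (5.03%) and 1454 had lower ones (7.99%). This excess of lower genes depended on the 2 widest arrays. Without replicate 2 of day 30 it turned, with 946 genes higher and 832 lower. Without replicate 2 of day 7 it shrank, with 691 higher and 841 lower, and without both, 852 were higher and 685 lower. Leaving out any other single TAA array kept more genes lower than higher. The 3 day 30 arrays lay entirely above the 3 day 7 arrays for 1033 genes (5.68%) and entirely below them for 1253 genes (6.89%). The median difference over all genes was -0.01. When each TAA array was left out, 832 to 1801 genes were lower and 691 to 1070 higher at an unadjusted p under 0.05. Counts of list members below are to be read beside these numbers. Weighting arrays by their quality called 104 probe sets, 60 of them higher, and leaving out replicate 3 of day 7 called 35, of which 10 were higher. All gene values that follow are therefore descriptions of 6 arrays, and none of these genes passed the test across all probe sets.

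The probe set nearest to the threshold was 1 of 7 for Xiap, an inhibitor of the caspases that carry out cell death. Its values were 0.13, 0.82 and 0.52 on the day 30 arrays, against -1.04, -0.80 and -0.53 on the day 7 arrays. The difference was 1.28 ± 0.18 with an adjusted p of 0.0521 (limma), and of the 7 probe sets of Xiap 5 were higher and 2 lower at day 30. This gene was picked out after its values were seen.

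Metallothioneins, small proteins that bind zinc and copper and are classical targets of glucocorticoids and of metals, were among the genes with the largest lower values at day 30. Their promoter windows, from 250 bases before to 50 bases after the RefSeq start on GRCm38.p6, are shown because the 3 measured genes of this cluster stood lower together. Capitals mark matches to the 7-letter cores TGCACNC and TGCGCNC on either strand, the core of the metal response element.
Mt1: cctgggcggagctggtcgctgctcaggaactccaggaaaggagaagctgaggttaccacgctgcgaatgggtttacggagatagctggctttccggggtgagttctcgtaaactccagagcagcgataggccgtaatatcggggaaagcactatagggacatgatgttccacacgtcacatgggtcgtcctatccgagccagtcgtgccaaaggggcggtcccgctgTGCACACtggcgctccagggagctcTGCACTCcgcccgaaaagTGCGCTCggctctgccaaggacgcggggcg
Mt2: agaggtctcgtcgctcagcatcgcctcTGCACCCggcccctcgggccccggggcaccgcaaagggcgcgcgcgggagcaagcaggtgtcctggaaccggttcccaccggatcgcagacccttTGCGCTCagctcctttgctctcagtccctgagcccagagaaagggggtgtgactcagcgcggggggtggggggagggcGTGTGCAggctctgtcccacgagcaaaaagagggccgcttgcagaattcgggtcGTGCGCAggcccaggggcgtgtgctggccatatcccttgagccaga
Mt3: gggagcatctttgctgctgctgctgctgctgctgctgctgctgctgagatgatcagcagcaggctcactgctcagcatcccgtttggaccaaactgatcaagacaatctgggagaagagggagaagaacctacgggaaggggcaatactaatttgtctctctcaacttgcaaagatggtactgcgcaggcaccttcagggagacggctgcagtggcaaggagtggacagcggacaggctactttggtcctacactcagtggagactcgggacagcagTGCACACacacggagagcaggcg
The Mt1 window is chr8:94178839-94179138, that of Mt2 is chr8:94172368-94172667 and that of Mt3 is chr8:94152357-94152656, all on the plus strand. The core matched at 3 positions in Mt1, at 4 in Mt2 and at 1 in Mt3. Among all 32851 promoter windows of the same length, 25.7% hold at least 1 match, 1.97% at least 3 and 0.52% at least 4. A match is a description of the letters only.

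Mt2 read 0.12, -0.37 and -0.06 on the day 30 arrays, against 1.93, 2.08 and 0.26 on the day 7 arrays. Its difference of -1.52 ± 0.38 (limma adjusted p = 0.197) is 2.87-fold lower at day 30. The values of Mt1 were 0.03, -0.83 and -0.17 at day 30 and 1.63, 1.36 and 0.31 at day 7, a difference of -1.42 ± 0.28 (limma adjusted p = 0.143). Replicates 1 and 2 of day 7 held the high values in both genes, and replicate 3 of day 7 stood closest to day 30 without overlapping it. A second probe set of Mt1 had a higher mean at day 30. Mt3, the form best known from brain, had -0.13, -0.15 and -0.44 at day 30 against 1.01, 1.38 and -0.05 at day 7 (difference -1.02 ± 0.23, limma adjusted p = 0.184). Its day 7 replicate 3 lay just above the day 30 values. Without day 7 replicate 3, Mt1 (-1.82, adjusted p = 0.0066), Mt2 (-2.10, adjusted p = 0.00738) and Mt3 (-1.44, adjusted p = 0.000128) passed in the same limma fit. That array is the day 7 array nearest to day 30, and no metallothionein passed when any of the other 5 TAA arrays was left out. In BSS retina the day 30 minus day 7 difference was -0.20 for Mt1, -0.10 for Mt2 and 0.07 for Mt3. In DEX retina it was -0.83 for Mt1, -0.94 for Mt2 and -0.11 for Mt3. Of the 16 measured genes for metallothioneins and oxidative stress, 5 were lower and 0 higher at an unadjusted p under 0.05 (7.99% and 5.03% of all genes), with a median of -0.11 that ran from -0.21 to -0.04 when each TAA array was left out. The median between the days was -0.12 in DEX retina and -0.07 in BSS retina. The other pair were Gclm, for glutathione synthesis (-0.62 ± 0.19), and catalase, Cat (-0.50 ± 0.19).

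**Figure D1:**
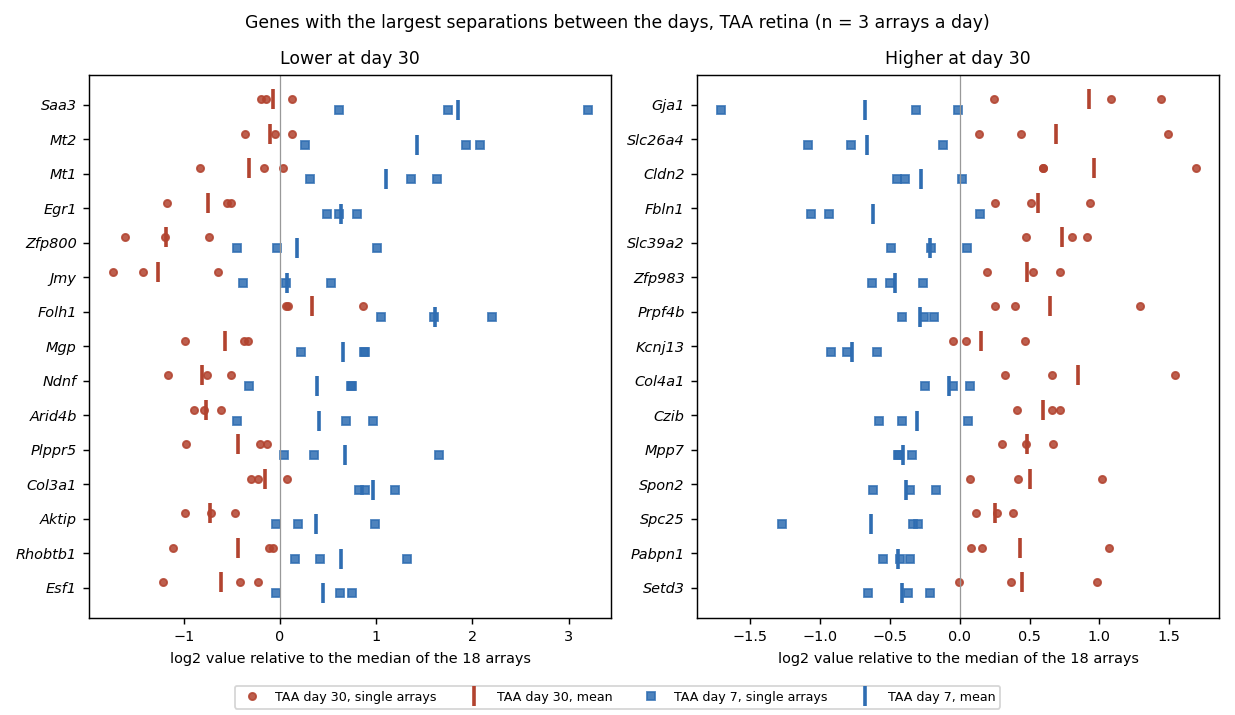
Log2 values (x axis, relative to the median of the 18 arrays) of the 15 genes with the largest lower values and the 15 with the largest higher values at day 30, among named genes with an unadjusted p under 0.05, TAA arrays that do not overlap and at least 0.5 of the difference kept without any 1 TAA array. Circles are single TAA day 30 arrays, squares single TAA day 7 arrays and vertical ticks the mean of 3. On the day 7 arrays Saa3 runs from 0.61 (replicate 3) to 3.20 (replicate 2) and Mt2 from 0.26 to 2.08.

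Including Mt1 and Mt2, 713 genes had lower and 561 had higher values at day 30 with an unadjusted p under 0.05, arrays that did not overlap and a difference that kept at least 0.5 of its size whichever TAA array was left out. The 15 largest in each direction with a gene name other than a predicted or clone symbol were singled out, and none of them passed. Their limma adjusted p ran from 0.106 to 0.342 among the lower and from 0.106 to 0.337 among the higher.

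Of the genes that met these conditions, Saa3, an acute phase serum amyloid, had the largest lower value. It read -0.15, 0.12 and -0.20 at day 30 and 1.74, 3.20 and 0.61 at day 7, a difference of -1.93 ± 0.39 (3.80-fold lower, limma adjusted p = 0.148). All day 7 arrays stood above all day 30 arrays, with replicate 2 of day 7 far above the rest. In BSS retina its difference between the days was 0.13 and in DEX retina -0.18. Egr1, an immediate early transcription factor, separated evenly: -0.56, -1.18 and -0.51 at day 30 against 0.62, 0.49 and 0.80 at day 7 (difference -1.38 ± 0.28, limma adjusted p = 0.143). Folh1, glutamate carboxypeptidase II, which releases glutamate from a neuropeptide, had 0.07, 0.86 and 0.08 at day 30 and 1.60, 2.20 and 1.05 at day 7 (difference -1.28 ± 0.26, limma adjusted p = 0.143). Its BSS difference was 0.06 and its DEX difference 0.11. Mgp, matrix Gla protein, an inhibitor of calcification, had -0.34, -0.99 and -0.38 at day 30 against 0.88, 0.87 and 0.22 at day 7. At -1.23 ± 0.22 (limma adjusted p = 0.106) it had one of the smallest p-values of the comparison, and in DEX retina its difference was -1.25.

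The rest of the 15 lower genes included the fibrillar collagen Col3a1 (-1.12 ± 0.44), the secreted factor Ndnf (-1.20 ± 0.31), Jmy, a cofactor of p53 and of actin assembly (-1.34 ± 0.40), the chromatin-associated Arid4b (-1.17 ± 0.41), the membrane protein Plppr5 (-1.12 ± 0.36), Aktip (-1.10 ± 0.26), the nucleolar Esf1 (-1.06 ± 0.27) and the zinc finger gene Zfp800 (-1.36 ± 0.42). Replicate 3 of day 7 was the day 7 array nearest to day 30 in 9 of the 15 lower genes and in 12 of the 15 higher ones. Among lower genes with more than 1 probe set, all probe sets were lower in 6 of 10. The zinc finger gene Zfp800 had 2 of 7 probe sets the other way, Jmy 2 of 4 and Col3a1 1 of 2.

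Of the higher genes that met the same conditions, Gja1, a connexin of gap junctions, had the largest difference. It read 0.24, 1.44 and 1.09 at day 30 and -1.71, -0.01 and -0.31 at day 7, and the wide spread gave 1.60 ± 0.62 (3.03-fold higher, limma adjusted p = 0.337). All 6 of its probe sets were higher at day 30. Slc26a4, the anion exchanger pendrin, differed by 1.35 ± 0.48, the tight junction claudin Cldn2 by 1.23 ± 0.33 and the matrix protein Fbln1 by 1.18 ± 0.44. These 4 genes also spread widely in vehicle retina, where the BSS day 7 arrays ran from -0.87 to 1.87 for Gja1, from -0.82 to 1.50 for Slc26a4 and from -1.21 to 1.19 for Fbln1. For Cldn2 the BSS day 7 arrays ran from -0.20 to 1.21.

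Slc39a2, a zinc importer, was far steadier: 0.81, 0.91 and 0.47 at day 30 against -0.50, -0.21 and 0.05 at day 7 (difference 0.95 ± 0.16, limma adjusted p = 0.106). Kcnj13 encodes a potassium channel of the pigment epithelium, the cell layer behind the photoreceptors. Its values were -0.05, 0.04 and 0.47 at day 30 and -0.92, -0.81 and -0.59 at day 7 (difference 0.93 ± 0.22, limma adjusted p = 0.184). The 20 measured genes of that layer averaged -0.28, -0.20 and 0.20 on the day 30 arrays and -0.12, 0.12 and -0.16 on the day 7 arrays. Among its defining markers Rpe65, the retinoid isomerase, read -1.26, -1.14 and 0.49 at day 30 against -0.37, 0.35 and -0.99 at day 7. Col4a1, a basement membrane collagen, had 0.33, 0.66 and 1.54 at day 30 and -0.05, 0.07 and -0.25 at day 7 (difference 0.92 ± 0.23, limma adjusted p = 0.197). Its highest value is on replicate 3 of day 30, the array with the high crystallins, and without that array the difference was 0.57. The part of lens tissue in it was not tested.

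The other higher genes included the nuclear poly(A)-binding protein Pabpn1 (0.88 ± 0.21), the splicing kinase Prpf4b (0.93 ± 0.20), the scaffold protein Mpp7 (0.89 ± 0.17), the secreted Spon2 (0.89 ± 0.18), the kinetochore subunit Spc25 (0.89 ± 0.21), the methyltransferase Setd3 (0.86 ± 0.27), Czib (0.91 ± 0.16) and Zfp983 (0.94 ± 0.24). Of those 15 genes, 12 had more than 1 probe set, and all probe sets were higher at day 30 in 6 of the 12. In Mpp7, 3 of 5 probe sets were lower, and in Cldn2 and Setd3 1 of 2 each.

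Genes known to respond to glucocorticoids stood lower at day 30 as a list. It shares Mt1 and Mt2 with the list of metallothioneins and oxidative stress. Like every list here, it was chosen with earlier results of these data known. The counts and shares therefore describe its members and are no test. Of 31 measured, 10 had a difference above 0, against 47.8% of all genes, 21 had one below 0, and 13 were lower at an unadjusted p under 0.05, against 7.99% of all genes, while 1 was higher, against 5.03%. The median difference was -0.28, beside -0.01 over all genes, and 8 of the 31 had day 30 arrays entirely below the day 7 arrays, against 6.89% of all genes. The mean of the list was 0.03, 0.01 and -0.05 on the day 30 arrays and 0.66, 0.61 and 0.13 on the day 7 arrays. The groups did not overlap, and replicate 3 of day 7 stood only slightly above day 30. Leaving out each TAA array in turn kept the median between -0.36 and -0.23 with 9 to 15 members lower. In BSS retina the median of the same list between the days was -0.02, and in DEX retina it was -0.04.

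Zbtb16, a zinc finger transcription factor strongly induced by glucocorticoids, read 0.02, -0.18 and 0.17 at day 30 and 1.21, 0.61 and 0.49 at day 7 (difference -0.77 ± 0.16, limma adjusted p = 0.143). All 3 of its probe sets were lower at day 30. Fkbp5, a co-chaperone that holds the receptor back, had -0.11, 0.46 and -0.19 at day 30 against 1.92, 0.33 and 0.33 at day 7. That is -0.81 ± 0.29 (limma adjusted p = 0.314), but 1 array carries it, since without replicate 1 of day 7 the difference was -0.28. Fam107a, an actin-associated stress gene, had 0.36, -0.16 and 0.35 at day 30 and 1.82, 0.84 and 0.73 at day 7, and Sult1a1, a sulfotransferase, 0.17, 0.07 and -0.16 against 1.58, 0.64 and 0.34. In Arrdc2 the values were -0.01, 0.17 and 0.04 at day 30 against 0.77, 1.34 and 0.35 at day 7, and in the repressor Bcl6 they were -0.32, -0.04 and -0.17 against 0.58, 0.88 and 0.08. The 4 genes Fam107a, Sult1a1, Arrdc2 and Bcl6 did not overlap between the days.

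Not every textbook target followed. Tsc22d3, which encodes the leucine zipper protein GILZ, had 0.01, 0.19 and -0.03 at day 30 and 0.17, 0.33 and 0.26 at day 7 (difference -0.20 ± 0.13). In the clock gene Per1 the difference was 0.06 ± 0.12 and in the kinase gene Sgk1 it was 0.07 ± 0.11. Dusp1, a phosphatase that quenches inflammatory kinases, had 0.01 ± 0.22. Klf9, a transcription factor, did stand lower at -0.80 ± 0.36, with its highest value of 1.61 on replicate 2 of day 7. Nr3c1, the receptor itself, was higher by 0.31 ± 0.13 in its most variable probe set, but the other 5 of its 6 probe sets were lower. The mean over its probe sets was -0.04.

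**Figure D2:**
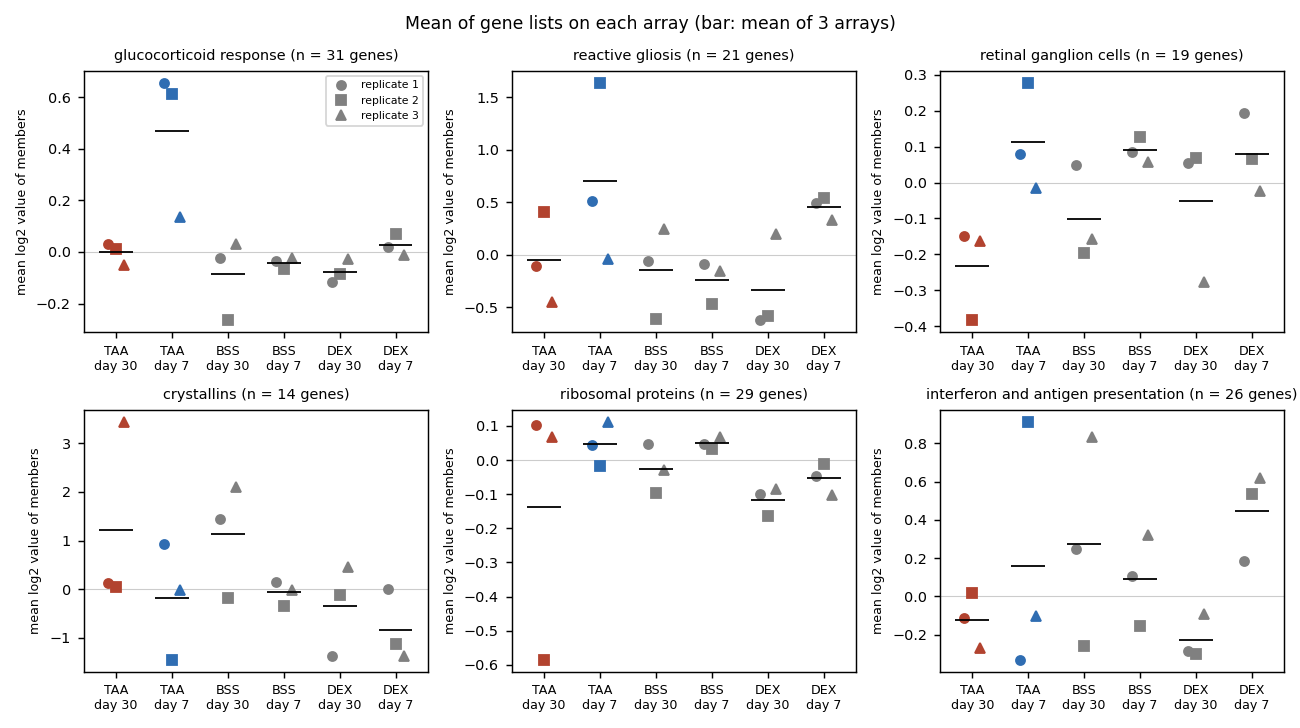
Mean log2 value of the members of 6 gene lists (y axis, relative to the median of the 18 arrays) on each of the 18 arrays, by treatment and day (x axis). Symbols give the replicate number and the bar the mean of 3 arrays. The glucocorticoid list stands at 0.66, 0.61 and 0.13 on the TAA day 7 arrays, and single TAA arrays stand apart for crystallins (3.44) and ribosomal proteins (-0.59).

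A second list, of genes tied to steroid-induced glaucoma, shares Zbtb16, Fkbp5, Nr3c1 and Sgk1 with the first. Its median was -0.35 over 16 genes, with 8 lower and 1 higher at an unadjusted p under 0.05 (7.99% and 5.03% of all genes). The median was -0.18 with 5 lower without replicate 2 of day 7. Besides Mgp and Saa3, it held Sparc, a matrix regulator (-0.60 ± 0.17), fibronectin Fn1 (-0.41 ± 0.15), the growth factor Ccn2 (-0.83 ± 0.32) and the cytochrome Cyp1b1 (-0.62 ± 0.28). Sparc read -0.29, -0.52 and 0.02 at day 30 and 0.60, 0.38 and 0.03 at day 7, so replicate 3 of both days lay together.

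Reactive gliosis, the response in which Müller glia and astrocytes build intermediate filaments and secrete acute phase proteins, had the lowest median of the 38 lists. Of 21 genes, 18 were below 0, the median was -0.60 and 9 were lower at an unadjusted p under 0.05 (7.99% of all genes). The 3 with the smallest p were Gfap, Serpina3n and A2m. Gfap, the filament protein of reactive glia, had -0.90, 0.13 and -0.99 at day 30 against 0.77, 2.11 and 0.01 at day 7 (difference -1.55 ± 0.40, limma adjusted p = 0.197). Serpina3n, a protease inhibitor, had -0.65, 0.77 and -1.76 against 1.87, 3.30 and 0.40 (difference -2.40 ± 0.77, limma adjusted p = 0.273), and the protease inhibitor A2m -0.12, 0.27 and -0.97 against 0.87, 3.14 and 0.19. In all 3 genes replicate 2 of each day was the highest array of its day, and the days overlapped. None of the 21 genes had separate days.

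The list mean was -0.11, 0.41 and -0.45 at day 30 and 0.51, 1.64 and -0.04 at day 7. Replicate 2 of day 7 held the highest of the 6 values in 16 of the 21 genes. Without it the median was -0.21 with 3 genes lower. Without replicate 2 of both days it was -0.40 with 5 lower. Vim, vimentin, had -0.83 ± 0.29, the signal transducer Stat3 -0.54 ± 0.21 and its inhibitor Socs3 -1.05 ± 0.47, while ceruloplasmin, Cp, had -1.23 ± 0.43. Lcn2, lipocalin, had 0.64, 0.51 and -1.12 at day 30 and 2.28, 3.43 and 0.18 at day 7 (difference -1.95 ± 1.05). In DEX retina the median between the days was -0.68 and in BSS retina 0.13.

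Genes of retinal ganglion cells, the neurons whose axons form the optic nerve, were lower at day 30 in 18 of 19. With 9 of the 19 lower at an unadjusted p under 0.05 (7.99% of all genes) and 9 entirely below day 7 (6.89%), the median was -0.30. In such bulk tissue, fewer cells of a type and less RNA per cell cannot be told apart. Thy1, a surface protein of these neurons, had -0.30, -0.79 and -0.21 at day 30 and 0.14, 0.32 and 0.02 at day 7 (difference -0.59 ± 0.16, limma adjusted p = 0.213). Nefl, the light neurofilament, had -0.46, -0.87 and -0.19 at day 30 against 0.31, 0.01 and -0.15 at day 7 (difference -0.57 ± 0.17). Pou4f1, the ganglion cell transcription factor, had -0.19, -1.14 and -0.20 against 0.18, 0.82 and 0.02 (difference -0.86 ± 0.28). The days did not overlap in these 3 genes, and replicate 2 of day 30 was the lowest array in each.

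The other neurofilament genes had differences of -0.51 ± 0.17 (Nefm) and -0.37 ± 0.14 (Nefh), and lower values were also found for the tubulin Tubb3 (-0.69 ± 0.23), the growth cone proteins Stmn2 (-0.67 ± 0.27) and Gap43 (-0.41 ± 0.18), and peripherin, Prph (-0.42 ± 0.15). Smaller differences were found for Rbpms (-0.26 ± 0.18), Sncg (-0.02 ± 0.12) and the vesicular glutamate transporter Slc17a6 (0.08 ± 0.34). The list mean was -0.15, -0.38 and -0.16 at day 30 and 0.08, 0.28 and -0.01 at day 7. Replicate 2 of day 30 was the lowest of the 6 arrays in 11 of 19 genes and replicate 2 of day 7 the highest in 13. Without replicate 2 of day 30, 3 genes were lower at an unadjusted p under 0.05 with a median of -0.29, without replicate 2 of day 7 it was 5 genes with a median of -0.26, and without both it was 1 gene with a median of -0.16. The median of the list between the days was -0.17 in BSS retina and -0.18 in DEX retina.

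**Figure D3:**
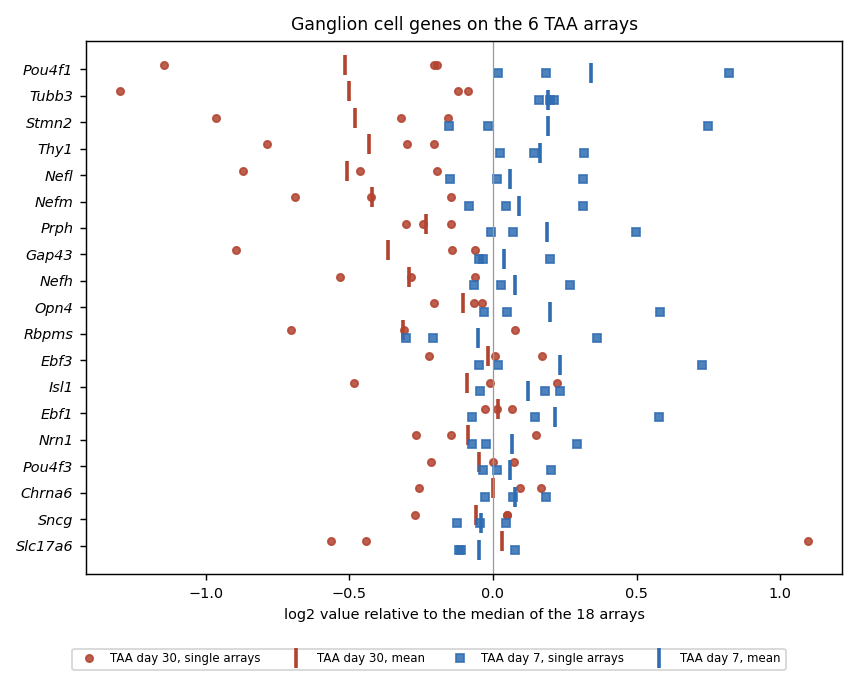
Log2 values (x axis, relative to the median of the 18 arrays) of the 19 ganglion cell genes on the 3 TAA day 30 arrays (circles) and the 3 TAA day 7 arrays (squares), with the mean of each day as a tick. The genes are sorted by their difference. The lowest circles of Tubb3 (-1.30) and Pou4f1 (-1.14) are replicate 2 of day 30.

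Of the other retinal neurons, bipolar cells had a median of -0.29 over 18, with 6 lower and 2 higher at an unadjusted p under 0.05 (7.99% and 5.03% of all genes). The median was -0.14 with 4 lower without replicate 2 of day 7, and -0.19 with 2 lower without replicate 2 of day 30. Without both it was -0.11, with 2 lower and 2 higher. Car8, a carbonic anhydrase-related protein, had -0.12, -0.47 and -0.10 at day 30 and 0.25, 0.37 and 0.39 at day 7 (difference -0.57 ± 0.13, limma adjusted p = 0.184), while Pcp2 stood higher at 0.36, 0.49 and 0.62 against -0.90, 0.13 and -0.20 (difference 0.82 ± 0.27). Of the 3 probe sets of Pcp2, however, 2 were lower at day 30. Vsx1, a bipolar cell transcription factor, differed by -0.36 ± 0.13. Amacrine and horizontal cell genes had a median of -0.15 over 20, 4 of them lower and 0 higher, led by Onecut2 (-0.29 ± 0.10), the neuropeptide Vip (-0.60 ± 0.22) and the inhibitory transporter Slc32a1 (-0.66 ± 0.25). In this list 1 gene was lower without replicate 2 of day 30, and 2 without replicate 2 of day 7.

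The synapse list had a median of -0.16 over 26, with 6 lower and 1 higher (7.99% and 5.03% of all genes), but 2 lower without replicate 2 of day 7. In Rims2, an organiser of vesicle release, the values were -0.21, -0.62 and 0.00 at day 30 and 0.38, 0.43 and 0.13 at day 7 (difference -0.59 ± 0.15). The vesicle fusion protein Snap25 differed by -0.93 ± 0.29, with -1.41 on replicate 2 of day 30, and the glutamate receptor Gria1 by -0.43 ± 0.15. Of the photoreceptor lists, rods had a median of -0.11 over 21, beside -0.01 over all genes, with 2 higher and 2 lower. Among them were Guca1b, which regulates guanylate cyclase (0.66 ± 0.18), the phosphodiesterase Pde6b (-0.31 ± 0.11) and Reep6 (-0.31 ± 0.14). Replicate 2 of day 30 was the lowest of the 6 TAA arrays in 13 of the 21 rod genes. Without it the rod median was 0.03. Cones had a median of 0.03 over 15, with 1 higher and 2 lower, led by Kcne2 (-0.42 ± 0.16), Gulo (0.33 ± 0.15) and Ccdc136 (-0.22 ± 0.10).

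The Müller glia list, which shares Vim with the gliosis list, had a median of -0.10 over 21, with 5 lower and 2 higher at an unadjusted p under 0.05 (7.99% and 5.03% of all genes). Leaving out replicate 2 of day 7 left 0 lower and a median of -0.04, and without replicate 2 of both days it was 0.04, with 0 lower and 3 higher. The number lower was 2 without replicate 2 of day 30 and 9 without replicate 1 of day 7. Vim led them, followed by clusterin, Clu (-0.57 ± 0.21), and Crym, which binds thyroid hormone (-0.82 ± 0.33). Crym stood at 1.86 on replicate 2 of day 7, which held the highest value in 11 of the 21 genes. The water channel Aqp4 had 0.08, -0.30 and 0.04 at day 30 and -0.54, 1.06 and -0.04 at day 7 (difference -0.22 ± 0.27), and the potassium channel Kcnj10 0.04, -0.46 and -0.16 against -0.20, 0.57 and 0.01 (difference -0.32 ± 0.17). In water and ion transport as a whole the median was -0.05 over 21, with 3 lower and 1 higher, and 1 to 6 lower when each TAA array was left out. Slc12a2, a sodium, potassium and chloride cotransporter, had -0.67, -0.89 and -0.47 at day 30 against 0.41, 0.20 and -0.24 at day 7 (difference -0.80 ± 0.24). Atp1b1, a sodium pump subunit, differed by -0.61 ± 0.22 and the potassium channel Kcnma1 by 0.67 ± 0.30.

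Blood vessel genes were mixed. The endothelium list had a median of 0.04 over 23, with 1 higher and 3 lower at an unadjusted p under 0.05 (5.03% and 7.99% of all genes), and 1 lower without replicate 2 of either day. Sox18, an endothelial transcription factor, had 0.21, 0.12 and 0.04 at day 30 and -0.34, -0.48 and -0.09 at day 7 (difference 0.43 ± 0.11), while Flt1, a receptor for VEGF, differed by -0.60 ± 0.19 and the lipid transporter Mfsd2a by -0.44 ± 0.17. In the angiogenesis list the median was -0.10 over 23, with 6 lower and 1 higher, and 3 lower without replicate 2 of day 30. The higher gene was Vegfa, the growth factor whose action intravitreal steroids are used to oppose. It read -0.09, 0.61 and 0.20 at day 30 and -0.04, -0.08 and -0.27 at day 7 (difference 0.37 ± 0.14, limma adjusted p = 0.341), and the days overlapped. Angpt1, a stabiliser of vessels, had -0.27, -0.09 and -0.37 at day 30 against 0.06, 0.75 and 0.10 at day 7 (difference -0.55 ± 0.17). For pericytes and smooth muscle the median was -0.02 over 15, with 2 lower and 0 higher, and the members with the smallest p were Rgs5 (-0.70 ± 0.23), Higd1b (-0.34 ± 0.15) and Abcc9 (-0.30 ± 0.17).

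Extracellular matrix genes spread in both directions, with 10 lower and 6 higher of 36 at an unadjusted p under 0.05 (7.99% and 5.03% of all genes) and a median of -0.02. The number lower was 4 without replicate 2 of day 7 and 5 without replicate 3 of day 30. With replicate 2 of both days left out, 3 were lower and 8 higher. The lower ones included Mgp, Col3a1, Col1a2 (-0.60 ± 0.25), Col5a2 (-0.48 ± 0.22), periostin, Postn (-0.53 ± 0.17), and the collagen crosslinking enzyme Lox. Lox had -0.42, -0.22 and -0.31 at day 30 and 0.47, 0.17 and -0.08 at day 7 (difference -0.50 ± 0.13, limma adjusted p = 0.197). The higher ones were Col4a1, Fbln1, Col6a1 (0.60 ± 0.19), Col18a1 (0.71 ± 0.29), Col5a1 (0.28 ± 0.12) and the laminin Lama2 (0.35 ± 0.14). Nid1, a basement membrane linker, stood at 4.11 on replicate 3 of day 30 and between -0.33 and 0.49 on the other TAA arrays. In DEX retina the median of the list was -0.24, and in BSS retina 0.04.

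Immediate early genes, which neurons and glia switch on within minutes of a stimulus, differed in both directions. Of 21 genes, 5 were lower and 5 higher at an unadjusted p under 0.05 (7.99% and 5.03% of all genes), and the median was -0.14. Leaving out each TAA array in turn gave 2 to 7 lower and 2 to 5 higher, with 2 lower without replicate 2 of day 7 or replicate 3 of day 30 and 2 higher without replicate 3 of day 7. Fos stood lower beside Egr1, with -0.22, -0.78 and -0.16 at day 30 and 0.22, 0.00 and 0.33 at day 7 (difference -0.57 ± 0.22). Nr4a3, an orphan nuclear receptor, stood higher, with 0.03, 0.31 and 0.05 against -0.41, -0.80 and -0.54 (difference 0.71 ± 0.22, limma adjusted p = 0.267). Fosl2 differed by 0.80 ± 0.31, Egr3 by 0.76 ± 0.32, Klf4 by 0.44 ± 0.18 and Npas4 by 0.37 ± 0.15. Nr4a3 differed between the days by 0.86 in BSS retina and 0.67 in DEX retina, and Fosl2 by 1.07 and 1.01. Egr1 differed there by 0.11 and -0.20.

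Genes of microglia, complement and interferon response mostly stood highest on replicate 2 of day 7. For microglia, the resident immune cells, the median was -0.04 over 19, with 2 higher and 0 lower at an unadjusted p under 0.05 (5.03% and 7.99% of all genes). Without replicate 2 of day 7 that median was 0.21, and without replicate 1 of day 7 it was -0.27. Cx3cr1, the fractalkine receptor of microglia, had -0.10, 0.63 and -0.20 at day 30 and -1.43, -0.35 and -0.29 at day 7 (difference 0.80 ± 0.29, limma adjusted p = 0.313), and 1 of its 2 probe sets was lower. Siglech differed by 0.28 ± 0.11 and the antibody receptor Fcgr3 by -0.60 ± 0.30. Replicate 2 of day 7 held the highest value in 13 of the 19 microglial genes, in 8 of 13 complement genes and in 21 of 26 genes of interferon response and antigen presentation. The interferon list averaged -0.11, 0.02 and -0.27 at day 30 and -0.33, 0.91 and -0.10 at day 7, with a median difference of -0.23 and 1 gene lower. Without replicate 2 of day 7 that median was 0.11, and without replicate 1 of day 7 it was -0.45 with 10 lower. Its leading members were Ifit2 (-0.61 ± 0.28), Ifit1 (-1.08 ± 0.53) and Igtp (-0.50 ± 0.32). The complement list had a median of -0.22 over 13 (0.03 without replicate 2 of day 7), with 1 lower (the C1 inhibitor Serping1, -1.19 ± 0.51) and 0 higher, and C1ra differed by -0.49 ± 0.24 and the complement inhibitor Cd59a by 0.21 ± 0.10.

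In other immune lists that array's values were mixed. Replicate 2 of day 7 held the highest value in 8 and the lowest in 9 of 23 inflammatory mediators. It held the highest in 3 and the lowest in 8 of 15 blood leukocyte genes. Its list means were still the highest of the 6 TAA arrays, at 0.24 for inflammatory mediators and 0.09 for blood leukocytes. Inflammatory mediators had a median of 0.05, with 1 higher and 2 lower. Besides Saa3 these were the cytokine Il18 (-0.50 ± 0.18) and Ptgs2, the inducible prostaglandin synthase (0.29 ± 0.13). Blood leukocyte genes had a median of -0.02, with 1 higher and 0 lower, and differed by 0.30 ± 0.12 in the T cell gene Cd3e, -0.28 ± 0.14 in Coro1a and 0.21 ± 0.12 in the B cell gene Cd79b. For erythrocytes the median was 0.04 over 7, with 1 higher and 1 lower, and the leading genes were the heme enzymes Fech (-0.44 ± 0.18) and Alas2 (0.31 ± 0.14) and the globin Hba-a1 (0.22 ± 0.13).

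Genes best known from tissue next to the retina varied between single arrays. The part of such tissue in these lists was not tested. Of 14 crystallins, 5 were higher and 0 lower at an unadjusted p under 0.05 (5.03% and 7.99% of all genes), and the median was 1.70. The mean of the list was 0.14, 0.05 and 3.44 at day 30 and 0.93, -1.45 and -0.02 at day 7, with the highest value on replicate 3 of day 30. Without that array the median was 0.04 and 0 were higher, and without replicate 2 of day 7, the lowest array, it was 1.21 with 0 higher. BSS retina also had high arrays, with list means of 1.45 and 2.10 on replicates 1 and 3 of day 30, and a median difference between the days of 1.33. Cryaa, the lens chaperone, read 0.28, 0.59 and 5.70 at day 30 and 0.43, -3.51 and -0.08 at day 7 (difference 3.24 ± 1.39), Cryba1 differed by 3.51 ± 1.50 and Crygn by 0.89 ± 0.40. The same array held 5.40 of Mip, the lens water channel, and 4.72 of the lens connexin Gja3. Among 13 lens fibre genes that are not crystallins, 2 were higher and 0 lower, with a median of 0.33 (0.02 without replicate 3 of day 30, and 0.30 in BSS retina), and Mip differed by 1.95 ± 0.91, Gja3 by 1.59 ± 0.77 and the RNA granule protein Tdrd7 by 0.33 ± 0.14. In the cornea and anterior segment list the median was -0.10 over 17, with 1 lower (Mgarp, -0.28 ± 0.11) and 0 higher, and the corneal enzyme Aldh3a1 read 4.28 on replicate 3 of day 30 (difference 1.41 ± 0.69). Lum, lumican, differed by -0.37 ± 0.18.

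Pigment epithelium genes had a median of -0.06 over 20, with 2 higher and 2 lower. Kcnj13 and Slc26a4 were the higher pair, and the phagocytosis receptor Mertk (-0.48 ± 0.15) was among the lower. Melanosome genes had a median of 0.15 over 12, with 0 higher and 0 lower, and gave 0.27 ± 0.15 for tyrosinase, Tyr, 0.20 ± 0.15 for Oca2 and 0.14 ± 0.13 for Rab38. Myelin genes had a median of -0.01 over 12, with 1 lower (Mal, -0.48 ± 0.20) and 0 higher, and gave 0.20 ± 0.15 for Pdgfra and 0.20 ± 0.21 for Sox10.

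Growth factor genes had a median of -0.10 over 24, with 5 lower and 0 higher at an unadjusted p under 0.05 (7.99% and 5.03% of all genes), and 3 lower without replicate 2 of day 7. Egfr, a growth factor receptor, had 0.03, -0.46 and -0.07 at day 30 and 0.73, 1.22 and 0.22 at day 7 (difference -0.89 ± 0.23, limma adjusted p = 0.197), and the days did not overlap. Igfbp2, which binds insulin-like growth factors, differed by -0.49 ± 0.16 and Ntrk2, the receptor of BDNF, by -0.41 ± 0.16. Cell death and stress genes had a median of 0.03 over 20, with 1 higher, the survival gene Bcl2 (0.37 ± 0.13), and 1 lower, the death receptor Fas (-0.39 ± 0.15). Mdm2 differed by -0.33 ± 0.20.

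Housekeeping lists mostly had their lowest values on replicate 2 of day 30, the array with the low Actb value for the 3′ end minus the 5′ end. Ribosomal protein genes had a median of -0.20 over 29, with 2 lower and 1 higher (7.99% and 5.03% of all genes), and that array held the lowest value in 21 of the 29. Without it the median was 0.02, while 14 were lower without replicate 1 of day 30 and 11 without replicate 3 of day 30. In those 2 fits 1801 and 1714 of all 18193 genes were lower. Rpl4 differed by -0.68 ± 0.17, Rps6 by -0.38 ± 0.12 and Rps24 by 0.49 ± 0.22. Oxidative phosphorylation had a median of -0.18 over 37, with 4 higher and 4 lower, and the array was lowest in 27 of the 37. Without it the median was again 0.02, with 1 lower, while 14 were lower without replicate 1 of day 30 and 11 without replicate 3 of day 30. Sdha, a subunit of complex II, stood higher at 0.51, 0.67 and 0.23 against -0.43, -0.23 and 0.03 at day 7 (difference 0.68 ± 0.17), as did Atp5c1 (0.62 ± 0.17), while Ndufv2 stood lower (-0.57 ± 0.19) with -1.03 on that array. Of the 4 probe sets of Sdha 2 were lower at day 30, and of the 2 of Atp5c1 1 was lower. Proteasome genes had a median of -0.12 over 26 (-0.01 without that array), with 5 lower (1 without that array, 2 without replicate 2 of day 7) and 3 higher, led by Psmc4 (-0.56 ± 0.18), Psma4 (-0.55 ± 0.18) and Psma5 (-0.39 ± 0.13). The part of RNA quality in these lists was not tested.

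The remaining lists had medians from -0.07 to 0.11, beside -0.01 over all genes. Heat shock and chaperone genes had a median of -0.07 over 15, with 1 higher, the steroid receptor co-chaperone Fkbp4 (0.40 ± 0.13), and 0 lower, while Hspb1 differed by -0.56 ± 0.27 and Hsp90aa1 by -0.16 ± 0.10. Circadian clock genes had a median of 0.04 over 20, with 2 lower, the nuclear receptors Rorb (-0.57 ± 0.16) and Rora (-0.40 ± 0.18), and 0 higher, and Cry2 differed by 0.34 ± 0.17. For the cell cycle the median was -0.02 over 26, with 1 higher, Ccna2 (0.33 ± 0.14), and 0 lower, while Top2a differed by -0.31 ± 0.17 and Ccnd2 by 0.61 ± 0.35. Cholesterol synthesis had a median of 0.11 over 21, with 2 higher, the sterol enzymes Msmo1 (0.48 ± 0.17) and Tm7sf2 (0.27 ± 0.11), and 0 lower, and Mvd differed by 0.28 ± 0.15.

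**Figure D4:**
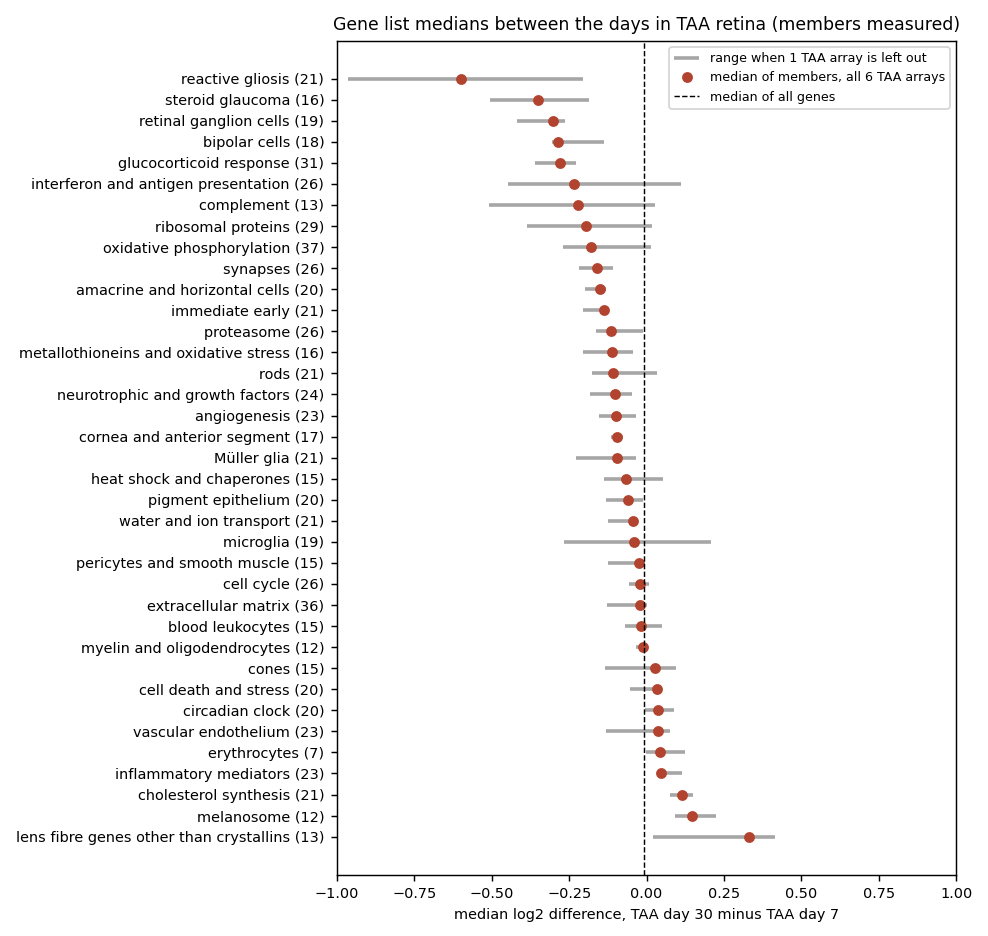
Median log2 difference, TAA day 30 minus TAA day 7 (x axis), of 37 of the 38 gene lists (y axis, with the number of genes measured). The grey bar is the range when each TAA array is left out in turn and the dashed line is the median of all genes (-0.01). Crystallins (1.70) lie off the scale and are left out. Bars of the reactive gliosis, steroid glaucoma, ganglion cell, bipolar cell and glucocorticoid lists stay below the line. So do those of many other lists, among them synapses, immediate early genes, cornea and anterior segment, and proteasome. Bars of the interferon, complement, ribosomal and oxidative phosphorylation lists cross it.

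To ask whether the difference between the days was particular to triamcinolone, the same difference was taken in vehicle retina and subtracted. No probe set passed (limma, 0 called, 0.0%, smallest adjusted p 0.651). An unadjusted p under 0.05 was reached by 2038 (5.83%). The TAA and BSS differences come from separate arrays. The TAA difference minus the BSS difference was 1.17 ± 0.23 for Slc39a2 (limma adjusted p = 0.651) and -2.06 ± 0.55 for Saa3 (limma adjusted p = 0.772). For Folh1 the value was -1.34 ± 0.36, for Mgp -1.02 ± 0.31, for Egr1 -1.49 ± 0.39, for Mt1 -1.22 ± 0.40 and for Zbtb16 -0.66 ± 0.22, with adjusted p between 0.772 and 0.818. The BSS differences of the 15 higher genes ran from -1.005 to 0.48 and those of the 15 lower genes from -0.53 to 0.94. None of the 30 genes can be called particular to TAA by this test.

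**Figure D5:**
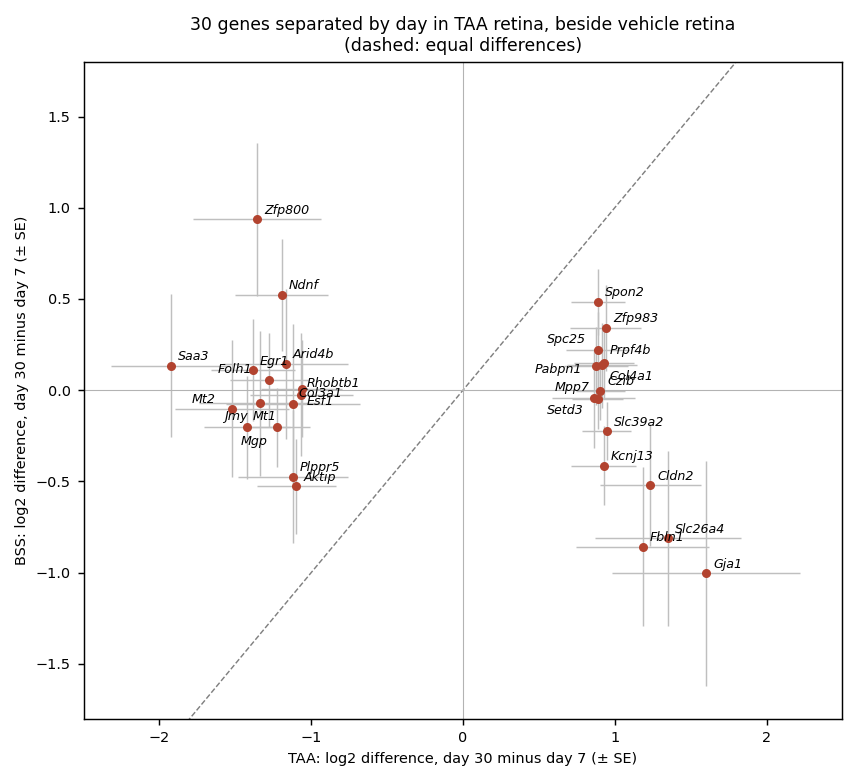
Log2 difference between the days, day 30 minus day 7, in TAA retina (x axis) and in BSS retina (y axis) for the 15 higher and 15 lower genes, with SE bars from the same limma fit (n = 3 arrays a day and treatment). The TAA values chose the genes, so their place on the x axis is no result. On the y axis the genes run from -1.005 (Gja1) to 0.94 (Zfp800).

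Against dexamethasone no probe set passed either (limma, 0 called, 0.0%, smallest adjusted p 0.165), with 5079 at an unadjusted p under 0.05 (14.5%). Leaving out replicate 3 of DEX day 30 called 1588 probe sets, so this count rests on that array. The doses are not in the labels. For Folh1 the TAA difference minus the DEX difference was -1.39 ± 0.36 (limma adjusted p = 0.192) and for Saa3 it was -1.75 ± 0.55 (limma adjusted p = 0.209). For Mgp the 2 drugs differed by 0.03 ± 0.31, for Serpina3n by 0.02 ± 1.10 and for Gfap by 0.24 ± 0.56, where DEX retina itself had -1.25, -2.42 and -1.79 between the days. Mt1 and Mt2 each differed by -0.59, with an SE of 0.40 and 0.53. Such a miss does not show that the drugs act alike.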

How the data were processed

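Total RNA of 18 retinas was labelled by the two-cycle Affymetrix procedure and hybridised to 1 array each, per the labels' protocols. The deposited log2 values were made by the authors with RMA, per the submitters' processing notes, whose version and settings are not given in the sources used here. The values are centred: 45101 of 45101 probe sets had a median within 5.1e-07 of 0 over the 18 arrays. That a higher value means more RNA, and the log2 base, follow RMA's convention. The labels name no batch and no scan date. The number of arrays limits the precision.

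Gene names come from the platform's annotation, which can be old. Of the probe sets, 34945 named 1 gene, 932 several, 9160 are unnamed here and 64 controls were left out. The 18193 genes are each represented by their most variable probe set (highest interquartile range). limma 3.58.1 in R 4.3.3 was fitted over all 18 arrays with 1 coefficient per group (12 residual degrees of freedom) and Benjamini-Hochberg adjustment over 34945 probe sets. The 12 arrays of other groups only add to the estimate of the spread. A planned filter on level could not be applied to centred values, so the 17473 most variable probe sets were kept in its place. The fit was tested on simulated data.

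The 38 gene lists name 816 genes, of which 732 were measured (5 by an older symbol). The members and lists were chosen with earlier results of these data known. Named were genes past the threshold, then up to 15 per direction at an unadjusted p under 0.05 with arrays that do not overlap and at least 0.5 of the difference kept in each fit that leaves out 1 TAA array, 3 members of each list with the smallest p, and 14 fixed genes, 1 of which is not analysed here. Predicted and clone symbols were not named (45 of 561 genes higher, 25 of 713 lower). Further list members named in the text were chosen after their values were seen. Promoter windows are RefSeq sequences of GRCm38.p6.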

Additional observations from a re-analysis of the deposited data

Results flagged for a closer look

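Of the 137 named genes, 11 had opposite, non-overlapping differences between the days in TAA retina and in another treatment. In these, every day 30 array lay to 1 side of every day 7 array in TAA retina and to the other side in BSS or DEX retina. The share of all genes with this pattern was not counted. Of all genes, 5.68% had TAA day 30 arrays entirely above day 7 and 6.89% entirely below. Many of the named genes were chosen for such separation or for a small p, so the count of 11 is a description only. The difference itself did not pass in any of the 11 (limma, adjusted p of 0.192 or more), and no explanation was tested. The rule for flagging did not look for single outlying samples within groups of 3 arrays. Fits that leave out 1 array are given below.

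Against BSS retina, the potassium channel Kcnj13 gave 1.34 ± 0.30 (0.93 in TAA and -0.41 in BSS retina) and the complement inhibitor Cd59a 0.40 ± 0.15 (0.21 and -0.19). The nuclear receptor Rorb gave -0.73 ± 0.22 (-0.57 in TAA and 0.17 in BSS retina). The ribosomal protein genes Rpl4 and Rps6 gave -0.89 ± 0.24 and -0.48 ± 0.17, and the proteasome gene Psma5 gave -0.56 ± 0.19. Their adjusted p lay between 0.760 and 0.836.

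Against DEX retina, the collagen Col4a1 gave 1.16 ± 0.33 (0.92 in TAA and -0.25 in DEX retina) and the microglial receptor Cx3cr1 1.48 ± 0.40 (0.80 and -0.68). The vesicle fusion gene Snap25 gave -1.74 ± 0.41 (-0.93 in TAA and 0.81 in DEX retina), with its lowest TAA value on replicate 2 of day 30. The vessel factor Angpt1 gave -0.90 ± 0.23 and the proteasome gene Psmc4 -1.07 ± 0.26. The adjusted p was 0.192 for each of these.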

How the results depend on the processing

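The count of 0 probe sets called between day 30 and day 7 held with array medians centred, with 1 probe set or the mean of probe sets per gene, with the 6 TAA arrays alone and without replicate 2 of both days. It was 104 with array weights, 2 with quantile normalization, 1 among the 17473 most variable probe sets and 1 with robust moderation. With the replicate number as a block, 7 were called (6 higher, 1 lower), 0 for TAA minus BSS and 1 for TAA minus DEX. After the mean of each group was subtracted, same-numbered TAA arrays of the 2 days correlated at -0.122, -0.104 and 0.0025. Differently numbered ones ran from -0.189 to 0.211. These values show no pairing by number, but so few pairs cannot exclude it. Leaving out 1 array gave 0 to 35, the 35 without TAA day 7 replicate 3. For TAA minus BSS, array weights called 19, and leaving out 1 array gave 0 to 3. For TAA minus DEX, array weights called 1775, and leaving out 1 array gave 0 to 1588. The share higher among probe sets at an unadjusted p under 0.05 was 51.6% after quantile normalization and 41.1% as deposited, and it was 54.3% without TAA day 30 replicate 2, 48.0% without TAA day 7 replicate 2 and 56.9% without both, so the excess of lower values depends on the scaling and on those 2 arrays. The number of such probe sets was 1964 with the 6 TAA arrays alone and 2656 to 5244 without 1 TAA array. Of 137 named genes, 12 turned sign in a setting other than leaving out 1 array: with array weights Hsp90aa1 (0.0209), Gulo (-0.0451), Mfsd2a (0.0657), Sox10 (-0.0689) and Aqp4 (0.0721), with the mean of probe sets Kcnma1 (-0.11), Rps24 (-0.37), Pdgfra (-0.10), Nr3c1 (-0.0448) and Aqp4 (0.104), and with quantile normalization Aqp4 (0.00839). Without replicate 2 of both days these were Igtp (0.0564), Cry2 (-0.0017), Sox10 (-0.16), Aqp4 (0.35) and Kcnj10 (0.0354). Leaving out 1 array turned Aqp4 (-0.57 to 0.23), Oca2 (-0.0319 to 0.331), Per1 (-0.0254 to 0.16), Sgk1 (-0.0178 to 0.19) and Sox10 (-0.0583 to 0.367). The list values without replicate 2 of both days were chosen after seeing the data. Causes were not tested.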
